A study of Homo sapiens with 79 samples.

Results

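The mRNAs of 10 transcription factor genes of the erythroid and hematopoietic lineages, GATA1, GATA2, TAL1, LMO2, KLF1, NFE2, ZFPM1, LYL1, MYB and GFI1B, were followed through 24 fRIPs and their inputs. They were chosen by symbol and not by a filter on their values, though with earlier results of these data known. All 10 were found among the 48453 genes of the gene table, with 82 of the 185661 transcripts of the isoform table. In fRIP-Seq, a light formaldehyde fixation of living cells is followed by sonication, 1 protein is pulled down with its antibody, and the RNA that comes with it is sequenced beside input RNA of the lysate. The cells were K562, an established human leukemia line with an erythroid character. The groups differed only in the antibody target as far as the labels say, with no treatment, time point or genetic change given. The 6 RNA-binding proteins (RBPs) were PABP, HUR, IMP1, ADAR, HNRNPU and HNRNPH1. The 18 chromatin-associated proteins (CAPs) were the Polycomb subunits SUZ12 and EZH2, the methyltransferase subunits WDR5 and RBBP5, the remodelers CHD7, CHD4 and CHD1, the acetyltransferases PCAF and CBP, the deacetylase HDAC1, the demethylases PHF8 and LSD1, DNMT1, CBX3 and phospho-CBX3, STAG2, CTCF and NUP98. EZH2 and STAG2 had 2 libraries each and the other 22 proteins 3 each, which made 70 fRIP libraries, and 9 input libraries were labelled as 3 sets of 3. The study described its replicates as biological, made on different dates, but all came from 1 cell line.

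These factors form the core of the network that specifies and matures red cells. GATA1 and GATA2 are zinc finger proteins that bind the same DNA motif, GATA2 in stem and progenitor cells and GATA1 as red cells and platelets mature. ZFPM1 (FOG1) is the cofactor that GATA1 needs for much of its activity. TAL1 and its relative LYL1 are basic helix-loop-helix proteins that join GATA factors on DNA through the bridging protein LMO2. KLF1 switches on adult globin and other red cell genes, and NFE2 acts at globin enhancers and in platelet formation. GFI1B represses genes as progenitors commit, and MYB keeps progenitors dividing and is lowered as they mature. Several of these genes are oncogenes in T-cell leukemia, among them TAL1, LMO2 and LYL1. What was measured here is the mRNA of each factor as recovered with an antibody to another protein. Enrichment means that more of that mRNA was recovered relative to other RNA than in input, and it does not tell direct from indirect contact.

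Depth was estimated from the smallest steps between low FPKM values, at 1.79 M to 54.3 M (mega) fragments per fRIP library and 11.1 M to 28.2 M per input library. By this estimate, every input library held at least 150 fragments of ZFPM1, the scarcest member, while the lowest fRIP library held 13. TFRC, the transferrin receptor and a marker of erythroid cells such as K562, was present in every input, at 228 to 335 FPKM (fragments scaled to transcript length and library size). Of the markers of other cells, the insulin gene INS was at 0 in all 9 inputs. One input library, replicate 1 of set 1, stood apart. It had HBG2 at 178 FPKM against a median of 944 FPKM over the 9 and the highest MYB level, and the calls of members that it changes are given with and without it.

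On hg19, by the annotation, GATA1 lies at chrX:48644948-48652718, ZFPM1 at chr16:88519688-88603439, MYB at chr6:135502446-135540311 and GFI1B at chr9:135819387-135867074 on the plus strand. On the minus strand lie GATA2 at chr3:128198270-128212044, TAL1 at chr1:47681962-47697897, LMO2 at chr11:33880122-33913623 and NFE2 at chr12:54685895-54694799. KLF1 (chr19:12995236-12998015) and LYL1 (chr19:13209847-13213975) are near neighbours on the minus strand of chromosome 19.

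In input, the level of the members per transcript length spanned more than an order of magnitude. MYB was the most abundant at 142 FPKM ± 22.6 (SD, n = 9), followed by GATA1 at 82.2 ± 11.8, NFE2 at 76.3 ± 6.25 and LYL1 at 68.9 ± 9.51 FPKM. TAL1 followed at 44.5 ± 6.06, GATA2 at 39.7 ± 6.24, KLF1 at 38.3 ± 10.4, LMO2 at 32.4 ± 6.60 and GFI1B at 25.97 ± 6.38 FPKM, and ZFPM1 was lowest at 8.58 ± 1.70 FPKM. In this order the ranges of neighbouring members overlapped, except between MYB and GATA1, between LYL1 and TAL1 and between GFI1B and ZFPM1. In bulk RNA of this kind, fewer cells that express a gene and less RNA per cell cannot be told apart. Input sets differed most for KLF1, whose set means were 26.2, 46.1 and 42.7 FPKM, and for GFI1B, at 20.7, 25.3 and 31.98 FPKM. For this reason, values against the input set that matched each protein are given as well. By the input values in the authors' table of comparisons, set 2 matched CHD1, NUP98, PCAF, RBBP5 and WDR5, set 3 matched CBP, CHD7, EZH2, HUR, PABP and PHF8, and set 1 matched the others.

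Which members each antibody recovered more or less than input was the first question. A member was called enriched or depleted at a limma adjusted p (Benjamini-Hochberg, over the 25442 genes tested) under 0.05 combined with an over 2-fold change on the log2(FPKM + 1) scale. Of the 240 pairs of a member and a fRIP, 24 (10%) were enriched, against 6.9% of all gene and fRIP pairs and 8.35% of those of the 10724 genes with a mean input level of at least 5 FPKM. Another 13 (5.42%) were depleted, against 5.52% and 7.59%, so that the members as a group were called about as often as other genes. The calls fell on 11 proteins, and in all 37 called pairs the fRIP libraries did not overlap the inputs, as in 90.1% of the called pairs of all genes. Each of the 10 members was enriched in at least 1 fRIP, as were 86.6% of the genes with at least 5 FPKM in input. All but GATA2, TAL1 and MYB were depleted in at least 1, as were 54.9% of those genes. As a stricter reading, a call was also required against the matched input set alone and after a centring of the libraries to a common median over the genes tested. Centring changed the fRIP values against input by between -0.98 (ADAR, lower) and 0.61 (PCAF, higher) on the log2 scale. By that rule 18 enriched pairs (7.5%) and 6 depleted pairs (2.5%) remained, against 4.06% and 2.86% of all pairs. The heat map of the members shows both kinds of call.

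**Figure D1:**
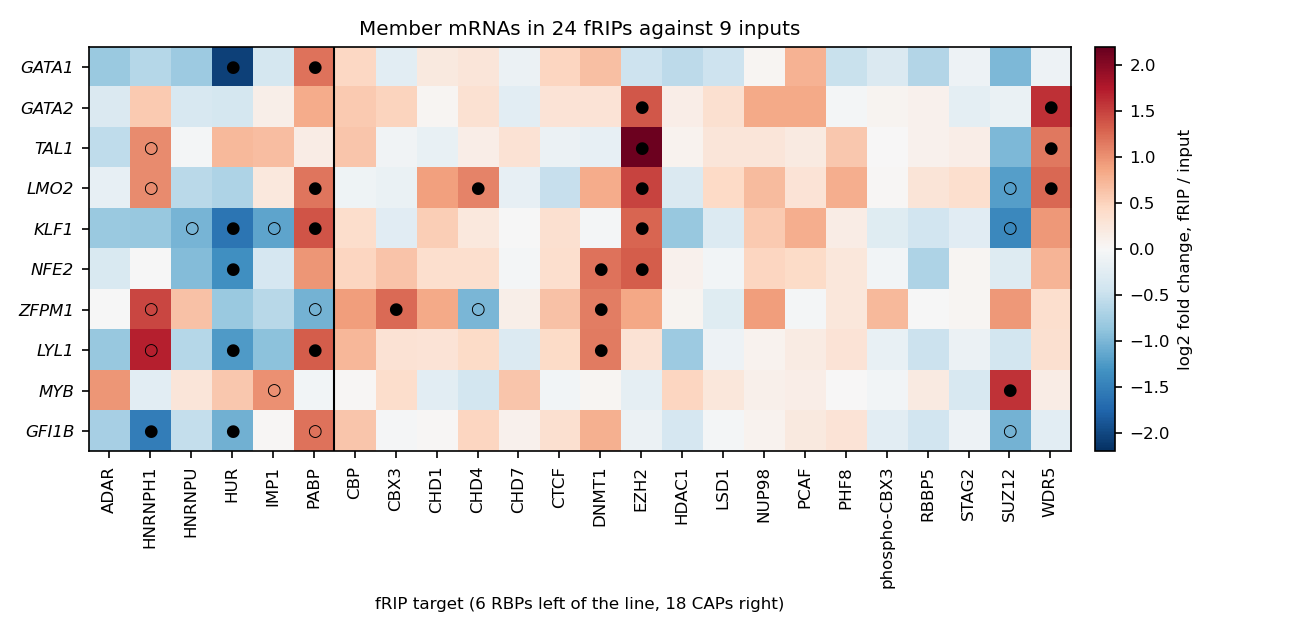
The heat map gives the log2 fold change of fRIP over input, on the log2(FPKM + 1) scale, for 10 members (rows) in 24 fRIPs (columns, 6 RBPs left of the line and 18 CAPs right of it). Filled circles mark calls that held in all 3 fits and open circles the other calls, and PABP, HUR, EZH2, HNRNPH1 and SUZ12 hold most of the circles.

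PABP, which coats the poly(A) tails of mRNAs, recovered GATA1, KLF1, LYL1, LMO2 and GFI1B above input. In PABP fRIP, 5 of the 10 members were enriched, where 11.1% of all genes were, and 1 was depleted, where 14.7% were. Among genes with at least 5 FPKM in input, LMO2, with the smallest change of the 5, stood at percentile 83.0. GATA1 stood at 171, 189.5 and 206 FPKM in the 3 PABP libraries and at 63.9 to 97.2 FPKM (median 85.3, n = 9) in input, with a log2 fold change of 1.20 ± 0.12 SE, limma adjusted p = 4.59e-13. KLF1 was at 94.1, 92.05 and 110.2 FPKM, against 24.8 to 56.6 FPKM (median 40.8, n = 9) in input, which gave 1.39 ± 0.18 SE, limma adjusted p = 2.90e-09. LYL1 reached 153, 177 and 191 FPKM, with 54.4 to 81.4 FPKM (median 68.4, n = 9) in input, and changed by 1.33 ± 0.16 SE, limma adjusted p = 2.24e-10. These are a master regulator of red cells, the activator of adult globin genes and a helix-loop-helix factor shared with stem cells, and each PABP library lay above every input for all 3 mRNAs. LMO2, the bridge between TAL1 and GATA1, was at 64.8, 73.8 and 80.9 FPKM (1.17 ± 0.24 SE, limma adjusted p = 4.03e-05), and its call was lost against input set 2 alone (0.93). GFI1B was at 53.2, 50.98 and 77.7 FPKM (1.20 ± 0.18 SE, limma adjusted p = 5.18e-08). The GFI1B change was 0.90 against the matched set, under the 2-fold limit. NFE2 and GATA2 were also above input in every PABP library, at 0.96 and 0.81, short of the limit as deposited, and past it after centring (1.45 and 1.30). TAL1 and MYB stayed near input, at 50.1, 47.6 and 51.7 FPKM and 146, 144 and 116 FPKM, with log2 fold changes of 0.17 and -0.06. ZFPM1 was the exception below input, at 3.29, 3.69 and 3.90 FPKM against 6.66 to 11.3 FPKM (median 7.93, n = 9), a change of -1.03 ± 0.27 SE, limma adjusted p = 7.39e-04 that was -0.93 against the matched set and -0.54 after centring, and was not called in either. The ZFPM1 call was also lost without PABP replicate 1 (-0.98), without the input library that stood apart (-0.99) and without input set 2 replicate 3 (-0.99).

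HUR (ELAVL1), an RBP known to bind AU-rich elements, recovered GATA1, KLF1, NFE2, LYL1 and GFI1B below input. In HUR fRIP, 5 members were depleted, where 6.93% of all genes were, none was enriched, and all 5 calls held in the 3 fits. Among genes with at least 5 FPKM in input, GFI1B, with the smallest change of the 5, stood at percentile 14.1. GATA1 fell the most, to 15.6, 21.1 and 20.5 FPKM from 63.9 to 97.2 FPKM (median 85.3, n = 9) in input, and changed by -2.05 ± 0.12 SE, limma adjusted p = 1.06e-21 on the log2 scale, at percentile 3.36 of the genes with at least 5 FPKM in input. KLF1 was at 10.01, 10.02 and 14.8 FPKM (-1.62 ± 0.18 SE, limma adjusted p = 8.70e-11). NFE2, a globin enhancer factor, was at 26.5, 32.4 and 28.7 FPKM (-1.36 ± 0.13 SE, limma adjusted p = 8.60e-13). LYL1 was at 26.9, 27.6 and 29.7 FPKM (-1.25 ± 0.16 SE, limma adjusted p = 2.89e-09). GFI1B was at 10.5, 10.3 and 14.8 FPKM (-1.05 ± 0.18 SE, limma adjusted p = 1.84e-06). For each of these, the highest HUR library lay below the lowest input. The GFI1B call was lost without HUR replicate 1 (-0.98), HUR replicate 2 (-0.97) or input set 3 replicate 3 (-0.97), the input with the highest GFI1B level, and against input set 1 alone (-0.77). TAL1 and MYB were the members above input, TAL1 at 75.1, 72.7 and 71.8 FPKM with a change of 0.72 and MYB at 221, 229 and 188 FPKM with 0.59, both short of the 2-fold limit. GATA2, LMO2 and ZFPM1 had values of -0.39, -0.68 and -0.81, the last past the limit after centring (-1.06), and the ZFPM1 libraries spread widely, at 1.29, 4.99 and 10.5 FPKM.

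The members' mRNA sequences were searched for a motif of AU-rich elements, which HUR and other proteins are known to bind, and for TTTTAAAA. The study named RBBP5 and IMP1 as the most significant binders of RNAs with TTTTAAAA, and for HUR it gave U-rich motifs. The motif ATTTA, the core of AU-rich elements, was searched on the sense strand, overlaps included, in the most abundant input isoform of each gene that the annotation holds, together with TTTTAAAA. ATTTA was absent from the isoforms searched of the members depleted in HUR fRIP (GATA1, KLF1, NFE2, LYL1 and GFI1B) and from the 497-base isoform of ZFPM1. For GFI1B this was ENST00000372122.1, with a mean of 4.44 of the gene's 26.0 FPKM in input, since the annotation used here has no entry for its main isoform. For LMO2 and ZFPM1 the isoform searched was of the class retained intron, with no coding sequence annotated. ATTTA was found in the other 4 members, with 9 sites in MYB (2.73 per kb, percentile 87.5) and 2 each in GATA2, TAL1 and LMO2. Of these 4, TAL1 and MYB were above input in HUR fRIP and GATA2 and LMO2 below it, none of them called. Among 9095 mRNA genes with at least 5 FPKM in input, 74.1% held ATTTA and 32.7% held TTTTAAAA, which only MYB held among the members. The isoforms also differed in base content. GC made up 69.2% of ZFPM1, 69.1% of LYL1, 65.7% of KLF1, 60.6% of GATA1 and 59.7% of GATA2. It made up 59.4% of GFI1B, 58.0% of NFE2, 52.8% of TAL1, 49.3% of LMO2 and 43.3% of MYB. The median over the 9095 genes was 47.6%, and the part of GC content or length in the HUR values was not tested. The sites below, from the annotation's transcripts on hg19, are shown because TAL1 and MYB were the members above input in HUR fRIP, with the motif in capitals. All lie in the 3′ UTR.
MYB TTTTAAAA site 1, chr6:135539297-135539322, plus strand: taaaaggatTTTTAAAAataaataac
MYB TTTTAAAA site 2, chr6:135539376-135539401, plus strand: tgcagatttTTTTAAAAaaaacataa
MYB TTTTAAAA site 3, chr6:135539523-135539548, plus strand: tgcatatatTTTTAAAAatcagtaaa
TAL1 ATTTA site 1, chr1:47684937-47684959, minus strand: tctgtccatATTTAtaggtaccc
TAL1 ATTTA site 2, chr1:47683136-47683158, minus strand: atttgggtaATTTAgattgtaaa
The MYB sites lie within 252 bases of each other, and a match is a description of these letters, not a bound site.

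**Figure D2:**
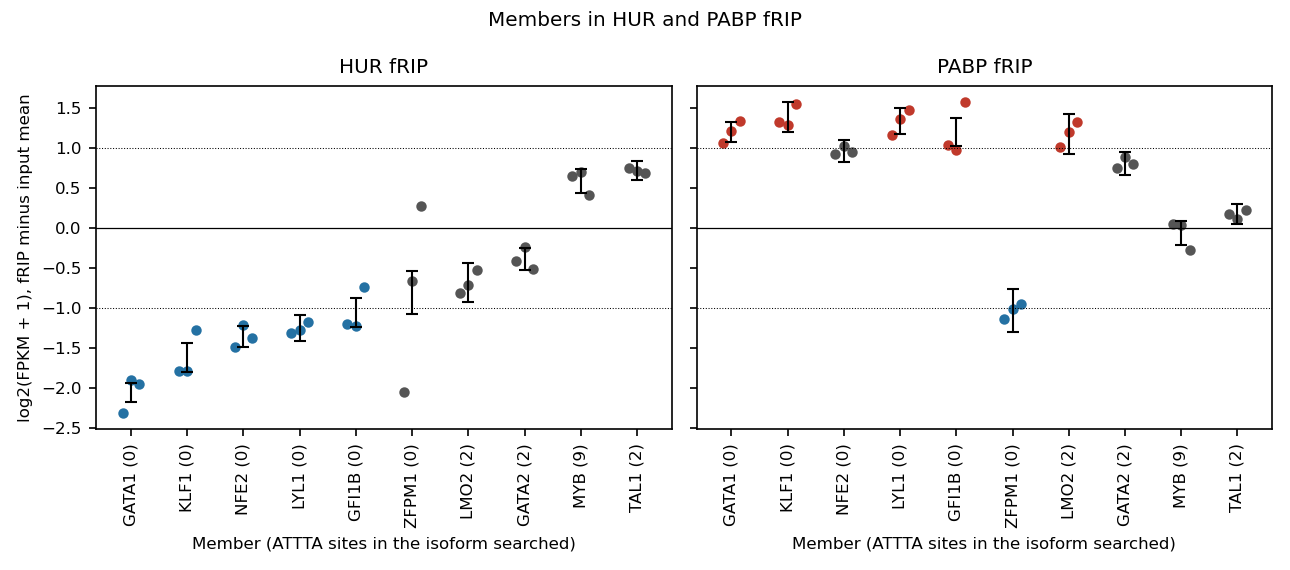
Points give log2(FPKM + 1) of each HUR (left) or PABP (right) library minus the input mean for each member, ordered by the HUR change, with the number of ATTTA sites in brackets. Black bars are the log2 fold change ± SE, red and blue mark enriched and depleted calls, and dotted lines mark the 2-fold limit. No ATTTA site was found in the isoforms searched of the 5 members depleted in HUR fRIP, for GFI1B a minor one, and the ZFPM1 libraries spread the widest in HUR fRIP.

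EZH2 and WDR5, catalytic subunit of the Polycomb complex PRC2 and core subunit of the MLL/SET histone methyltransferases, each recovered TAL1, LMO2 and GATA2 above input. In EZH2 fRIP, 5 members were enriched, where 10.5% of all genes were, and all 5 held in the 3 fits. TAL1 was at 173 and 229 FPKM in the 2 EZH2 libraries and at 32.6 to 52.6 FPKM (median 45.98, n = 9) in input, the largest change of a member against all 9 inputs, at 2.15 ± 0.14 SE, limma adjusted p = 1.51e-19, or 4.52-fold by mean FPKM. Against the matched set it was 1.99, less in size than that of GATA1 in HUR fRIP (-2.21). LMO2 was at 90.1 and 90.6 FPKM (1.48 ± 0.29 SE, limma adjusted p = 1.99e-05). GATA2 was at 102 and 104 FPKM (1.36 ± 0.17 SE, limma adjusted p = 4.23e-10). NFE2 reached 202 and 186 FPKM (1.34 ± 0.16 SE, limma adjusted p = 1.48e-10) and KLF1 90.1 and 92.6 FPKM (1.28 ± 0.22 SE, limma adjusted p = 1.54e-06). The KLF1 call was lost against input set 2 alone (0.99). In contrast, GATA1 was at 65.3 and 53.4 FPKM, with a change of -0.46, and MYB, GFI1B and LYL1 changed by -0.20, -0.12 and 0.32, none of them called. ZFPM1 was at 13.5 and 18.9 FPKM, above its inputs (6.66 to 11.3 FPKM), and was not called either. These values rest on 2 EZH2 libraries.

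In WDR5 fRIP, 3 members were enriched, where 3.9% of all genes were. GATA2 was at 117, 99.3 and 154 FPKM against 34.7 to 53.7 FPKM (median 36.3, n = 9) in input (1.61 ± 0.14 SE, limma adjusted p = 2.82e-14), its highest level in any fRIP and at percentile 98.4 of the genes with at least 5 FPKM in input. TAL1 was at 101, 99.1 and 99.97 FPKM (1.16 ± 0.12 SE, limma adjusted p = 1.43e-11). LMO2 was at 69.8, 91.4 and 72.2 FPKM (1.26 ± 0.24 SE, limma adjusted p = 2.87e-05). All 3 calls held in the 3 fits. KLF1 (0.95) and NFE2 (0.74) were short of the limit against all inputs and past it after centring (1.33 and 1.12), and KLF1 was past it against input set 1 alone as well (1.44), while GATA1 was at -0.11. RBBP5, which works with WDR5 in the same histone methyltransferases, enriched no member, with values from -0.69 to 0.29. The difference between the WDR5 and RBBP5 fRIPs was not tested.

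SUZ12 is another PRC2 subunit. In SUZ12 fRIP MYB was enriched, where 15.3% of all genes were, and KLF1, LMO2 and GFI1B were depleted, where 8.6% were. Among genes with at least 5 FPKM in input, these changes stood at percentiles 88.3, 9.46, 12.8 and 16.7. MYB reached 543, 311 and 464 FPKM, its highest level in any fRIP, against 127 to 201 FPKM (median 136, n = 9) in input, with a log2 fold change of 1.60 ± 0.15 SE, limma adjusted p = 1.71e-14. Without the input library that stood apart, the change was 1.66, and 1.69 against what then remained of the matched set. The 3 SUZ12 libraries differed among themselves but all lay above the inputs. KLF1 was at 15.2, 10.1 and 15.4 FPKM (-1.41 ± 0.18 SE, limma adjusted p = 1.59e-09). LMO2 was at 10.8, 10.7 and 19.4 FPKM (-1.21 ± 0.24 SE, limma adjusted p = 2.44e-05). GFI1B stood at 13.8, 9.54 and 12.6 FPKM (-1.04 ± 0.18 SE, limma adjusted p = 1.27e-06). Against the matched set 1, where KLF1 and GFI1B were lower than in the other sets, the 3 changes were -0.93, -0.95 and -0.75, all under the 2-fold limit. Without the input library that stood apart, LMO2 was past it against what remained of that set, at -1.14. The GFI1B call was also lost without SUZ12 replicate 2 (-0.90) or input set 3 replicate 3 (-0.96). TAL1 and GATA1 were just short of the limit, at 18.5, 21.9 and 25.03 FPKM and 46.7, 33.1 and 43.4 FPKM, both with -0.99, and past it after centring, at -1.02 and -1.01. Without the input library that stood apart they were past it too, at -1.05 and -1.01. The EZH2 and SUZ12 values rest on shared inputs, and for TAL1 they were 2.15 and -0.99, for KLF1 1.28 and -1.41 and for LMO2 1.48 and -1.21. The difference between these fRIPs was not tested. ADAR and IMP1, an editing enzyme and a regulator of mRNA stability and transport, gave the next highest MYB levels, at 313, 255 and 267 FPKM (0.97, 1.04 and called without the input library that stood apart, and -0.01 after centring) and 303, 259 and 291 FPKM. The IMP1 change was 1.01 ± 0.15 SE, limma adjusted p = 6.56e-08, and it was 0.90 against the matched set and 1.10 when the input library that stood apart was left out of that set. Leaving out IMP1 replicate 1 or 3, or any 1 of 5 input libraries, brought it to between 0.96 and 0.999, under the limit. Enriched genes made up 4.23% of all genes in IMP1 fRIP.

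**Figure D3:**
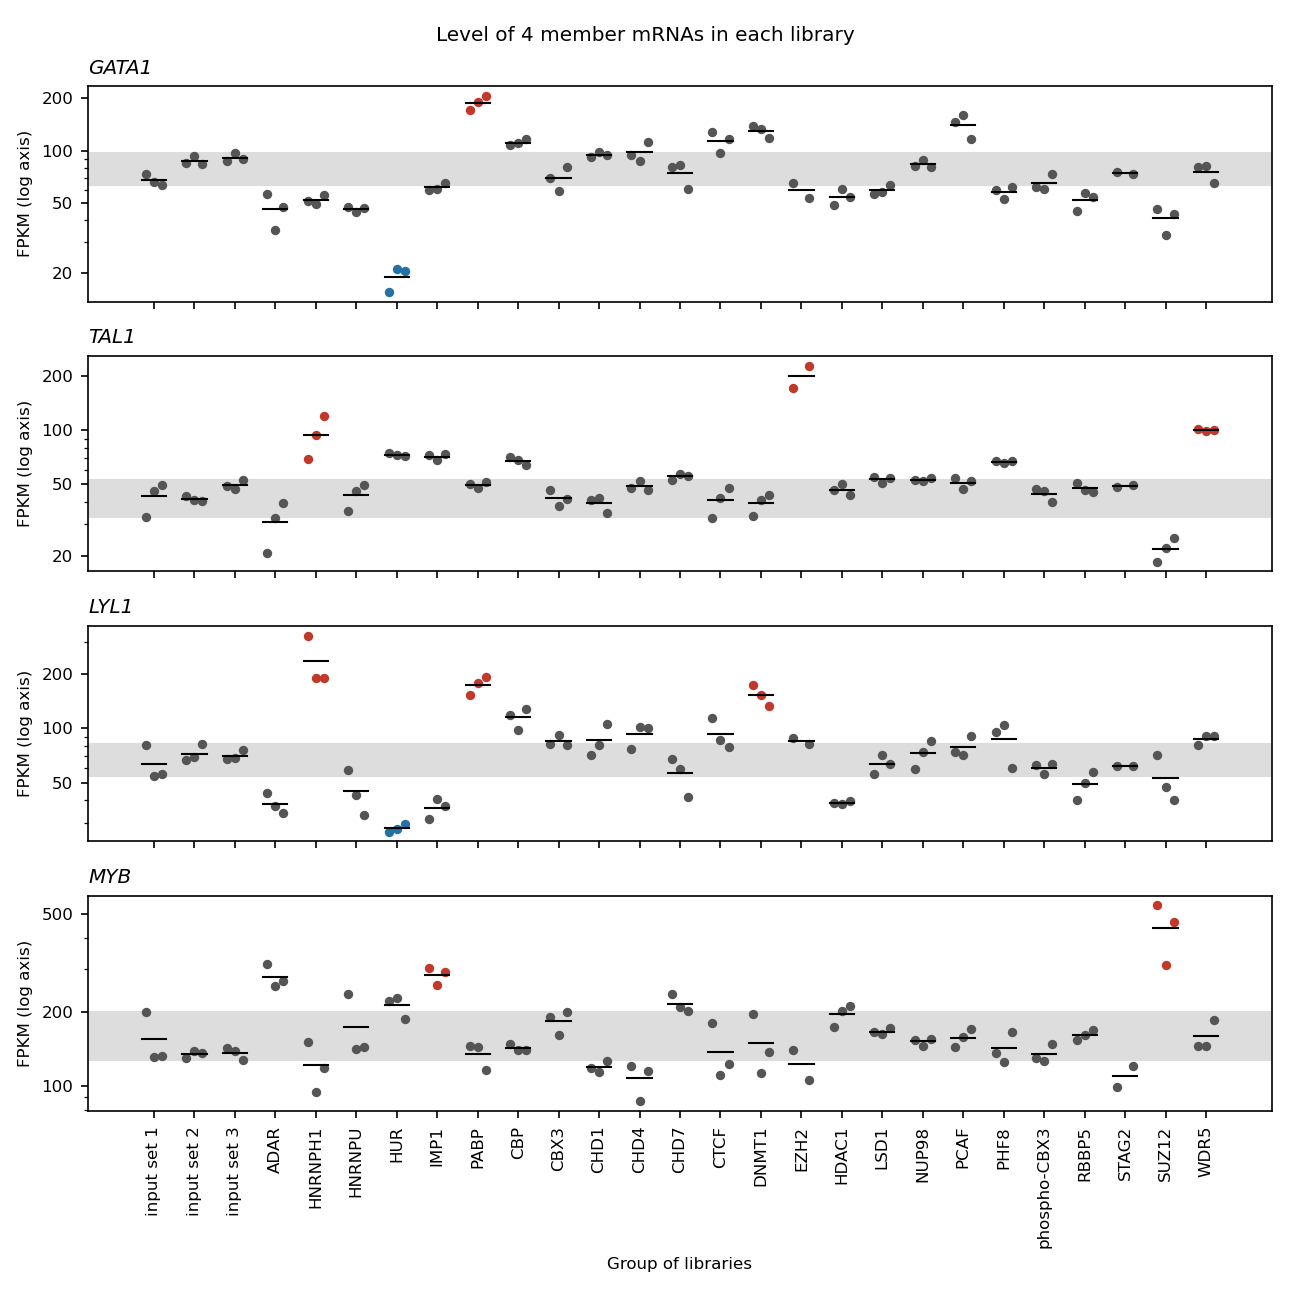
Each panel shows FPKM on a log axis for 1 member in every library, by group, with the mean as a bar. The grey band is the range of the 9 inputs, and red and blue mark enriched and depleted calls. GATA1 is highest in PABP and lowest in HUR fRIP, TAL1 highest in EZH2, LYL1 highest in HNRNPH1 and MYB highest in SUZ12 fRIP.

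HNRNPH1, a splicing regulator that binds runs of G, gave 4 enriched members, where 24.5% of all genes were, and 1 depleted, where 7.9% were. LYL1 was at 324, 188 and 189.7 FPKM against 54.4 to 81.4 FPKM (median 68.4, n = 9) in input, a change of 1.71 ± 0.16 SE, limma adjusted p = 4.13e-14. ZFPM1 was at 22.9, 18.9 and 36.8 FPKM (1.47 ± 0.27 SE, limma adjusted p = 2.69e-06). TAL1 reached 69.3, 93.7 and 119 FPKM (1.04 ± 0.12 SE, limma adjusted p = 7.04e-11) and LMO2 60.3, 48.3 and 99.8 FPKM (1.04 ± 0.24 SE, limma adjusted p = 1.94e-04). These rest on the scale of the HNRNPH1 libraries. Centring moved them by -0.73 on the log2 scale and left changes of 0.98, 0.74, 0.31 and 0.30, none of them called. The TAL1 call was also lost against input set 3 alone (0.88) and the LMO2 call against set 2 alone (0.80). GFI1B was depleted, at 8.75, 6.05 and 10.5 FPKM against 20.1 to 40.05 FPKM (median 23.4, n = 9) (-1.51 ± 0.18 SE, limma adjusted p = 6.71e-11), which held in all 3 fits. Without the input library that stood apart, the TAL1 and LMO2 changes were 0.99 and 0.96, and without HNRNPH1 replicate 3, the highest for both, they were 0.85 and 0.75.

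Among the other CAPs, DNMT1, the maintenance DNA methyltransferase, enriched 3 members, where 9.56% of all genes were, and all 3 held in the 3 fits. NFE2 was at 184, 153 and 192 FPKM (1.20 ± 0.13 SE, limma adjusted p = 4.51e-11). LYL1 was at 174, 153 and 133 FPKM (1.15 ± 0.16 SE, limma adjusted p = 2.63e-08). ZFPM1 stood at 20.4, 15.7 and 23.5 FPKM (1.12 ± 0.27 SE, limma adjusted p = 3.59e-04), which without DNMT1 replicate 3 fell just under the limit (1.000). CHD4, the remodeler of the NuRD complex to which FOG1 is known to bind, enriched LMO2 at 70.7, 47.3 and 98.1 FPKM (1.09 ± 0.24 SE, limma adjusted p = 1.94e-04). It depleted ZFPM1, the FOG1 mRNA, at 3.13, 3.35 and 4.84 FPKM (-1.003 ± 0.27 SE, limma adjusted p = 0.00161). In this fRIP 2.91% of all genes were enriched and 9.79% depleted. The ZFPM1 change was -0.60 after centring and -0.96 without the input library that stood apart, and was called in neither, nor without CHD4 replicate 1 or 2 (-0.91 and -0.94) or 1 of 2 other inputs, nor against input set 3 alone (-0.90). The LMO2 change was 0.84 without CHD4 replicate 3 and 0.86 against input set 2 alone, not called in either. CBX3, a heterochromatin protein, enriched ZFPM1 at 21.5, 20.4 and 21.98 FPKM (1.24 ± 0.27 SE, limma adjusted p = 1.24e-04), where 7.45% of all genes were enriched. KLF1 was depleted in HNRNPU fRIP, at 16.96, 15.5 and 21.3 FPKM (-1.02 ± 0.18 SE, limma adjusted p = 6.04e-06). It was depleted in IMP1 fRIP as well, at 16.4, 13.9 and 18.1 FPKM (-1.16 ± 0.18 SE, limma adjusted p = 4.43e-07). In these fRIPs 2.52% and 10.5% of all genes were depleted. Against the matched input set, where KLF1 was lowest, these changes were -0.53 and -0.67, under the limit. The IMP1 change was -0.70 after centring, and the HNRNPU change fell short of the limit without HNRNPU replicate 1 or 2 or any 1 of 4 inputs, at -0.995 to -0.93. Against all 9 inputs, no member was called in the other 13 fRIPs (ADAR, phospho-CBX3, CBP, PCAF, CHD7, CHD1, HDAC1, LSD1, PHF8, RBBP5, NUP98, STAG2 and CTCF). Their values for the members lay between -0.84 and 0.97. A further 3 calls appeared against the matched set that were not made against all inputs, LMO2 (1.07) and GFI1B (1.07) in DNMT1 fRIP and ZFPM1 (1.03) in CBP fRIP. Without the input library that stood apart, the matched LMO2 change in DNMT1 fRIP was 0.88, not called, and that of ZFPM1 in SUZ12 fRIP was 1.05, called. Centring brought members past the limit in several of these fRIPs, among them GATA1 in ADAR (-1.80) and PCAF fRIP (1.38).

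The isoform table separates spliced mRNAs from annotated transcripts that keep all or part of an intron. An isoform of the annotated class retained intron exists for 4 members (GATA2, LMO2, ZFPM1 and LYL1). That of LYL1 spans a whole intron, of 1335 bases. The most abundant ones of GATA2, LMO2 and ZFPM1 hold 134, 334 and 196 bases of a longer intron, in transcripts of 1433, 1550 and 497 bases. For these genes the share rests in part on how reads of shared exons were split, and does not show that an intron was kept. An NFE2 isoform that keeps an intron is annotated as coding, is described further on and was not part of these shares. The share of each gene's summed isoform FPKM in these isoforms was compared with input by a two-sided exact permutation test over libraries, adjusted over 96 pairs of a member and a fRIP. The share differed in 36 pairs, 15 higher and 21 lower than input. LYL1 gave 8 higher and 7 lower, ZFPM1 3 and 10, LMO2 4 and 3, and GATA2 0 and 1. With 3 fRIP libraries against 9 inputs the smallest p possible is 0.00455, and against 1 input set of 3 it is 0.1, so no pair could pass there. For a comparison with other genes, the same test without adjustment was run on the 5735 genes with such an isoform and at least 5 FPKM in input. At an exact permutation p under 0.05, 18 of 96 member pairs (18.8%) were higher, against 25% of all pairs, and 29 (30.2%) were lower, against 22.4%. The share was higher for 70.6% of all genes in HNRNPH1 and 54.2% in HNRNPU fRIP, and lower for 70.9% in PABP, 66.1% in CHD4 and 45.6% in WDR5 fRIP, so the values of the members there are given as a description and not as particular to them.

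The LYL1 retained intron share was 72.03, 70.5 and 72.5% in the 3 HNRNPH1 libraries, 71.7% ± 1.05 (SD, n = 3), against 12.99% ± 4.24 (SD, n = 9) in input (exact permutation p = 0.00455, adjusted p = 0.0175), and 18.4% in the matched set. It was also higher in CBX3 (38.95, 42.01 and 39.3%), CBP, SUZ12, HNRNPU, HUR, ADAR and HDAC1 fRIP. At an unadjusted exact permutation p under 0.05, the share was higher for 60% of all genes in CBX3, 42.4% in CBP, 62.7% in SUZ12, 40.8% in HUR, 53.5% in ADAR and 23% in HDAC1 fRIP. It was lowest in PABP fRIP, at 0.368, 0.446 and 0.237% (exact permutation p = 0.00455, adjusted p = 0.0175), and in CHD4 fRIP, at 1.03, 1.27 and 1.20%. In FPKM, the retained intron isoform ENST00000590120.1 was at 234, 133 and 137 FPKM in HNRNPH1 fRIP against 8.88 FPKM ± 3.08 (SD, n = 9) in input. This was a log2 fold change of 4.10 ± 0.22 SE, limma adjusted p = 1.69e-23 and of 3.83 after centring. The spliced LYL1 mRNA ENST00000264824.4 was at 88.4, 54.8 and 50.04 FPKM in the same libraries, against 58.9 FPKM ± 8.71 (SD, n = 9) in input, and was not called there. In PABP fRIP the spliced isoform was enriched, at 149, 174 and 189 FPKM (1.53 ± 0.17 SE, limma adjusted p = 7.13e-11). The retained intron isoform was depleted there, at 0.564, 0.790 and 0.453 FPKM (-2.58 ± 0.22 SE, limma adjusted p = 6.44e-15).

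The retained LYL1 intron is the first of the gene, between the exon that holds the 5′ end of the mRNA and the one that holds the start codon, and no other annotated isoform has an exon in it.

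ZFPM1 and LMO2 also had their highest retained intron shares in HNRNPH1 fRIP. For ZFPM1 the share was 91.5, 90.1 and 94.4% against 73.8% ± 4.24 (SD, n = 9) in input (exact permutation p = 0.00455, adjusted p = 0.0175), and it was lowest in PABP fRIP, at 1.79e-06, 12.9 and 29.4%. The isoform, ENST00000562417.1, has 497 bases, with 196 bases of a longer intron at chr16:88555562-88555757. It shares its other exons with the spliced mRNA, so that its FPKM rests on few positions. It stood at 20.9, 17.1 and 34.8 FPKM in HNRNPH1 fRIP against 6.33 FPKM ± 1.32 (SD, n = 9) in input (1.74 ± 0.41 SE, limma adjusted p = 3.03e-04). The full-length mRNA ENST00000319555.3 was at 1.94, 1.87 and 2.05 FPKM against 1.98 FPKM ± 0.545 (SD, n = 9). For LMO2 the share was 78.3, 71.5 and 80.99% in HNRNPH1 fRIP, against 32.4% ± 15.2 (SD, n = 9) in input and 49.8% in the matched set (exact permutation p = 0.00455, adjusted p = 0.0175). The LMO2 inputs ranged from 9.44% to 56.7%, and were highest in set 1. In PABP fRIP the LMO2 share averaged 0.187% (exact permutation p = 0.00909, adjusted p = 0.0291). LYL1, ZFPM1 and LMO2 thus had higher shares than input in HNRNPH1 and HNRNPU fRIP and lower ones in PABP, CHD4 and WDR5 fRIP, by the adjusted test in each case. GATA2 was not among them. Its share was 40.8, 41.3 and 39.6% in HNRNPH1, 41.8, 45.4 and 42.1% in HNRNPU, 38.8, 31.99 and 42.7% in PABP, 39.97, 33.96 and 41.4% in CHD4 and 31.8, 27.8 and 37.5% in WDR5 fRIP, against 30.5% ± 8.53 (SD, n = 9) in input, with no difference past the adjusted threshold. Its retained intron isoform ENST00000489987.1 was enriched in PABP fRIP, at 25.8, 23.4 and 29.5 FPKM (1.10 ± 0.21 SE, limma adjusted p = 1.08e-05), where those of the other 3 were depleted. The plot of retained intron shares gives every library.

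**Figure D4:**
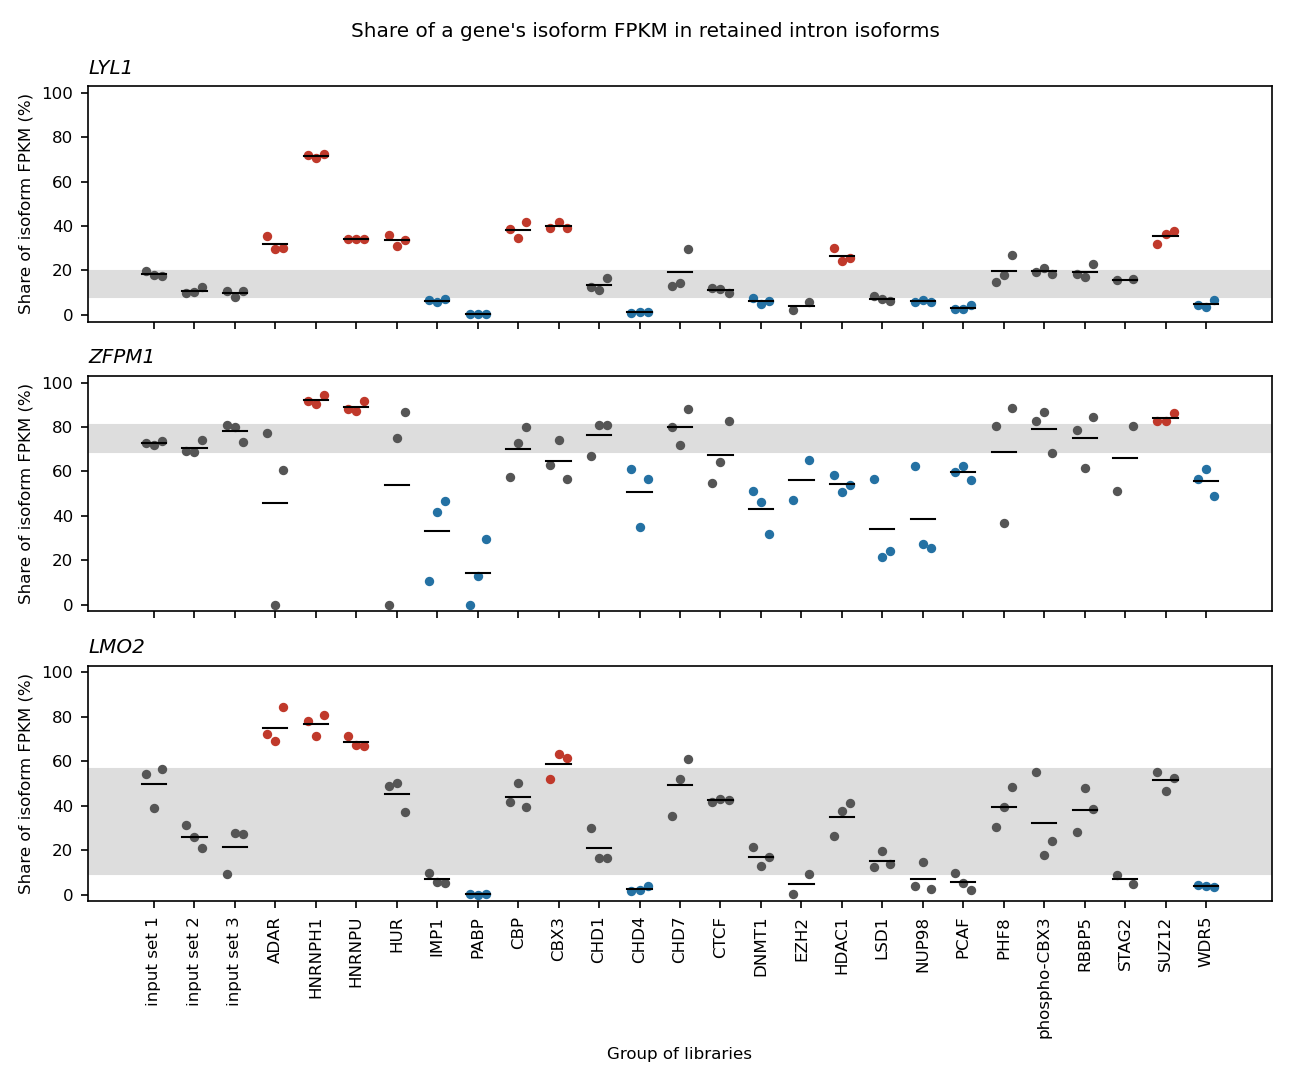
Each panel shows, for LYL1, ZFPM1 or LMO2, the percent of the gene's summed isoform FPKM in retained intron isoforms in every library, with the mean as a bar. The grey band is the range of the 9 inputs, and red and blue mark groups higher and lower than input at an adjusted p under 0.05. All 3 genes are highest in HNRNPH1 fRIP.

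Isoforms of 1 gene differed from each other and from the gene total in other members too. Of the 82 isoforms, 68 passed the filter, and of their 1632 pairs with a fRIP 9.99% were enriched and 8.15% depleted, against 7.29% and 5.47% of all isoform and fRIP pairs. For NFE2, whose total in HNRNPH1 fRIP was 88.9, 56.7 and 84.8 FPKM (-0.01), the isoform ENST00000540264.2 rose to 32.3, 25.96 and 28.4 FPKM from 6.15 FPKM ± 1.46 (SD, n = 9) in input (2.08 ± 0.24 SE, limma adjusted p = 6.33e-11). ENST00000312156.4 fell to 4.25, 5.70 and 6.28 FPKM from 28.8 FPKM ± 4.15 (SD, n = 9) (-2.22 ± 0.26 SE, limma adjusted p = 1.50e-10). The first keeps as exon the 239 bases at chr12:54689089-54689327 that are an intron in the second. In PABP fRIP ENST00000540264.2 was depleted, at 0.525, 0.131 and 0.544 FPKM (-2.34 ± 0.24 SE, limma adjusted p = 2.82e-12). For LMO2, the isoform of the nonsense-mediated decay class ENST00000411482.1 was enriched in CHD4 (53.1, 29.4 and 68.7 FPKM), PABP (41.6, 43.98 and 51.3 FPKM) and WDR5 fRIP (32.9, 38.1 and 35.3 FPKM), from 5.89 FPKM ± 3.54 (SD, n = 9) in input, by 3.10 ± 0.55 SE, limma adjusted p = 7.39e-06 in CHD4. Its input values ranged from 0.0267 to 10.8 FPKM, so its split from the coding isoforms of LMO2 was uneven already in input.

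MYB has 40 annotated isoforms, and different fRIPs were high for different ones. In SUZ12 fRIP the enriched isoforms included ENST00000430686.2, a short coding isoform that ends 226 bases into an intron (chr6:135515599-135515824), at 175, 82.9 and 135 FPKM against 17.6 FPKM ± 4.19 (SD, n = 9) in input (2.79 ± 0.22 SE, limma adjusted p = 1.71e-16). ENST00000525002.1, of the nonsense-mediated decay class, was at 101, 58.3 and 76.1 FPKM against 7.79 FPKM ± 2.38 (SD, n = 9) (3.18 ± 0.23 SE, limma adjusted p = 4.66e-18). In IMP1 fRIP, by contrast, the full-length coding isoform ENST00000367814.4 was at 150.1, 122 and 149 FPKM against 32.03 FPKM ± 11.002 (SD, n = 9) (2.18 ± 0.33 SE, limma adjusted p = 4.14e-07), and ENST00000430686.2 was at 5.56, 8.78 and 7.94 FPKM. In ADAR fRIP ENST00000529297.1, a transcript of 343 bases at chr6:135524355-135525088 whose last 235 bases lie in an intron of ENST00000367814.4, was at 127, 135 and 139 FPKM against 11.8 FPKM ± 3.68 (SD, n = 9) (3.46 ± 0.34 SE, limma adjusted p = 1.82e-13). ENST00000367814.4 was listed at or near 0 in all ADAR and HNRNPH1 libraries and in 2 of the 3 SUZ12 libraries, the remaining one being at 1.47 FPKM. The MYB gene totals were above all inputs in ADAR and SUZ12 fRIP and at 152, 94.8 and 118 FPKM in HNRNPH1 fRIP (-0.24, not called). Reads of 31 bases are shared by most MYB isoforms, so the split of a total among them is an estimate, and an isoform listed at 0 is not shown to be absent. Genes on the opposite strand overlap exons of 4 members, MYB-AS1 those of MYB, GATA2-AS1 those of GATA2, TSC1 those of GFI1B and ENSG00000226252 those of TAL1, and with this unstranded kit their reads cannot be told apart.

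**Figure D5:**
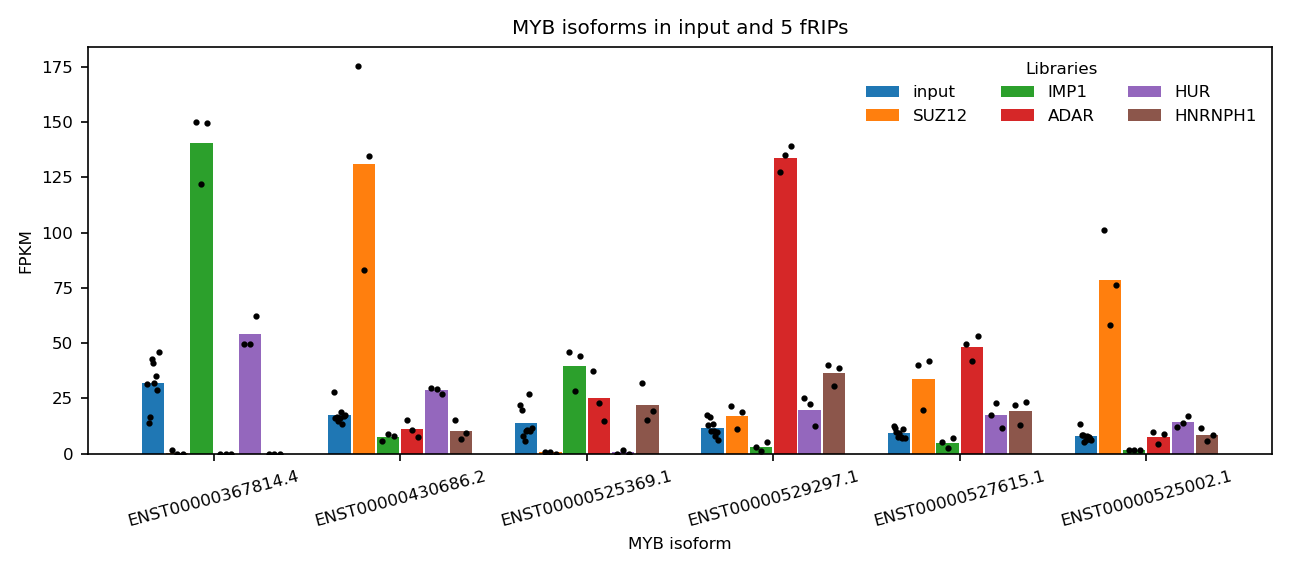
Bars give the mean FPKM of 6 MYB isoforms in the 9 inputs and in SUZ12, IMP1, ADAR, HUR and HNRNPH1 fRIP, and points the libraries. SUZ12 is highest for ENST00000430686.2 and ENST00000525002.1, IMP1 for ENST00000367814.4 and ADAR for ENST00000529297.1.

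Calls were also made for isoforms of GATA1, TAL1 and GATA2. In PABP fRIP the minor GATA1 isoform ENST00000447551.1 was at 43.1, 43.7 and 57.1 FPKM against 9.37 FPKM ± 3.10 (SD, n = 9) in input (2.28 ± 0.40 SE, limma adjusted p = 2.96e-06). The main isoform ENST00000376670.3 was at 127, 145 and 149 FPKM against 72.5 FPKM ± 10.3 (SD, n = 9), short of the limit. The main isoform was depleted in HUR fRIP, at 15.6, 19.3 and 16.9 FPKM (-2.001 ± 0.12 SE, limma adjusted p = 1.79e-20). For TAL1, the coding isoform ENST00000371884.2 was at 141 and 187 FPKM in EZH2 fRIP against 40.8 FPKM ± 5.40 (SD, n = 9) in input (1.98 ± 0.15 SE, limma adjusted p = 1.50e-16). It was at 10.99, 14.5 and 18.3 FPKM in SUZ12 fRIP (-1.44 ± 0.13 SE, limma adjusted p = 1.90e-14), so that at this level the SUZ12 depletion passed the limit. Both GATA2 isoforms with the highest input levels were enriched in WDR5 fRIP, ENST00000341105.2 at 61.95, 51.8 and 79.6 FPKM and the retained intron isoform ENST00000489987.1 at 37.3, 27.6 and 57.9 FPKM. KLF1 has 1 isoform in the table, with the values of the gene.

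The profiles of the members over the 24 fRIPs were compared with each other and with other genes. By the Pearson correlation of the 24 group means of log2(FPKM + 1), a description over points that share depth and scale, the members most alike were GATA1 with GFI1B (0.83) and KLF1 with NFE2 (0.81). The lowest values were those of MYB with LMO2 (-0.67), KLF1 (-0.61) and LYL1 (-0.61). Of the 45 pairs of members, 18 correlated above 0.5 and 14 below 0. Among 8309 other genes with at least 10 FPKM in input, the 3 most like each of the 9 members above that level (all but ZFPM1) were SSSCA1 (0.94), PSMD8 (0.94) and TWF2 (0.93) for GATA1, CTD-2228K2.5 (0.86), RNF220 (0.86) and PIM3 (0.85) for GATA2, MAFG (0.94), RP13-638C3.4 (0.88) and MFHAS1 (0.87) for TAL1, DEDD2 (0.92), FRAT2 (0.90) and SLC39A1 (0.88) for LMO2 and MRPS26 (0.94), YDJC (0.93) and IMP3 (0.92) for KLF1. They were SCO2 (0.93), THAP7 (0.92) and PREB (0.92) for NFE2, PNMT (0.96), FKBP2 (0.95) and PFDN6 (0.92) for LYL1, SRPK2 (0.87), CDC27 (0.84) and BRAF (0.84) for MYB and HBE1 (0.96), SLC25A1 (0.91) and CIB1 (0.90) for GFI1B. HBE1, nearest to GFI1B, encodes embryonic globin, MAFG, nearest to TAL1, encodes a small MAF protein that pairs with NFE2 on DNA, and the MYB neighbours SRPK2 and BRAF encode kinases.

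Partners and relatives of these factors, a list that includes LDB1, the cofactor that LMO2 brings to the TAL1 complex, gave more enriched than depleted calls. Of 26 listed genes 24 were tested, and of their 576 pairs with a fRIP 62 were enriched (10.8%) and 6 depleted (1.04%). Over all genes tested the shares were 6.9% and 5.52%, and over those with at least 5 FPKM in input 8.35% and 7.59%. In all 3 fits, 39 of the enriched and 5 of the depleted calls held. The pairs had a median log2 fold change of 0.15 against -0.02 over all genes. HNRNPH1 enriched 10 of them, where 24.5% of all genes were enriched, and DNMT1 and EZH2 8 each, where 9.56% and 10.5% were. CBFA2T3 (ETO2), the corepressor of the TAL1 complex, was at 182 FPKM ± 26.6 (SD, n = 3) against 32.8 ± 6.50 in input (log2 fold change 2.45 ± 0.17 SE, limma adjusted p = 2.73e-19) in HNRNPH1 fRIP. In CHD4 fRIP it was at 9.996 FPKM ± 2.19 (SD, n = 3) against 32.8 ± 6.50 in input (log2 fold change -1.62 ± 0.17 SE, limma adjusted p = 9.73e-12). MAFK, a small MAF partner of NFE2, was at 34.6 FPKM ± 10.6 (SD, n = 2) against 6.29 ± 1.90 in input (log2 fold change 2.30 ± 0.26 SE, limma adjusted p = 4.86e-11) in EZH2 fRIP. SOX6, a repressor of embryonic globin, was at 2.67 FPKM ± 0.107 (SD, n = 3) against 13.4 ± 3.30 in input (log2 fold change -1.93 ± 0.21 SE, limma adjusted p = 5.00e-12) in PABP fRIP.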

How the data were processed

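The authors aligned 31-base paired-end reads of an unstranded, Ribo-Zero depleted TruSeq library to hg19 with TopHat and made FPKM with Cuffdiff 2 on GENCODE 18, and the processing notes also name CASAVA 1.4 and Cuffnorm. The deposited FPKM values of genes and isoforms, 1 column per library, were used, with groups from the labels. A table of comparisons, with group FPKM, test statistics, p and q values, served only to find which input set the authors had set beside each protein, by the group FPKM. Positions and transcripts come from GENCODE 44 lifted to GRCh37 (hg19).

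All 79 libraries entered 1 limma 3.58.1 fit (R 4.3.3, intensity trend) of log2(FPKM + 1), after a filter of at least 1 FPKM in at least 2 libraries, which left 25442 genes and 104506 isoforms. Fold changes on this scale understate the change of low genes. P-values were adjusted by Benjamini-Hochberg within each fRIP, and a call needed an adjusted p under 0.05 and an absolute log2 fold change over 1. The fit was tested on simulated data. Retained intron shares were compared by exact permutation tests (scipy 1.17.1). Numbers of fragments were estimated from the steps of low FPKM values, and FPKM carry no interval of their own. By the same replicate number in the labels, samples deviated together (every correlation over 0.1) for 6 of 24 proteins, and for these the block on replicate number left the 3 member calls as they were. STAG2, with only 1 numbered pair (correlation 0.111), was not counted.

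The members, lists and tests were chosen with earlier results of these data known. All members, every called pair and each member's highest and lowest change, isoforms with at least 1 FPKM in input, the 2 highest and 2 lowest called pairs of each list and the 3 genes most like each member were eligible to be named. The matched input set less 1 library, the retained intron test over all genes and the isoform coordinates shown were chosen after values had been seen. Some items withheld for evaluation are not reported here. Alternatives were other pseudocounts (0.1 and 0.5), filters (none and 5 FPKM), centred libraries, single and matched input sets, replicate blocks, each protein's libraries with inputs only, no trend and each library left out.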

Additional observations from a re-analysis of the deposited data

Results flagged for a closer look

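Among the 9 input libraries, 1 value of MYB and 1 of GFI1B lay far from the others. MYB was at 201 FPKM in input set 1 replicate 1, with the others at 127 to 143 FPKM, a gap of 0.790 of the whole range and above Dixon's critical value for 9 samples. The same library had the lowest HBG1, HBG2 and HBE1 levels. GFI1B was at 40.0 FPKM in input set 3 replicate 3, a gap of 0.513 of the range. The inputs of 10 members were examined in this way, and chance alone gives such a value in about 1 of 20 groups. No fRIP group, with 2 or 3 libraries, was examined.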

How the results depend on the processing

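Of the 37 called member pairs, 19 were called under all 14 alternatives and with each of the 79 libraries left out in turn, 17 were lost under at least 1 alternative, 10 on leaving out 1 library, and none changed direction. Enriched pairs, 24 in all, ranged from 21 with input set 2 alone to 35 with centred libraries, and from 22 to 25 with 1 library left out. Depleted pairs were less stable. The 13 became 30 with centred libraries, 7 with input set 1 alone, 7 with the matched input set and 8 with the matched input set less 1 input library (an alternative chosen after seeing the data), and ranged from 10 to 15 with 1 library left out. The cause was not tested. With the replicate number as a block within input sets, the pairing left 26 enriched and 7 depleted pairs, and as a block over all libraries 24 and 13. Only 6 of 24 proteins showed samples paired by number. Isoform calls, 163 enriched and 133 depleted, ranged from 154 to 168 and from 128 to 138 with 1 library left out, and the depleted ones fell to 85 with the matched set less 1 input library. Calls in the lists ranged from 229 to 260 around 234. The retained intron share differed in 36 pairs, in 26 to 37 with 1 library left out and in 34 where the gene total was at least 5 FPKM. It differed in 0 with input set 1, 0 with set 2 and 0 with set 3 alone, where 3 against 3 libraries cannot go below a p of 0.1, so these say nothing of stability. At an unadjusted exact permutation p under 0.05, 47 pairs differed in the full comparison. Depth limits ZFPM1 most, with 13 fragments in its lowest fRIP library.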

Other observations

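Genes of red cell maturation were followed in the same fRIPs, where 8.35% of pairs of genes with at least 5 FPKM in input were enriched and 7.59% depleted (6.9% and 5.52% of all genes tested). Globin genes, of which 9 of 10 passed the filter, had 7 of 216 pairs enriched (3.24%) and 50 depleted (23.1%), with a median log2 fold change of -0.52 against -0.02 over all genes, and 15 of the depleted calls held in all 3 fits. Without the input library that stood apart by its low globin levels, 5 were enriched and 68 depleted. HUR fRIP depleted 8 globin genes, where 6.93% of all genes were depleted. Among them HBG2, fetal globin, was at 73.4 FPKM ± 10.6 (SD, n = 3) against 866 ± 269 in input (log2 fold change -3.42 ± 0.60 SE, limma adjusted p = 3.46e-06), and HBG1 at 18.3 FPKM ± 2.61 (SD, n = 3) against 263 ± 82.5 in input (log2 fold change -3.65 ± 0.62 SE, limma adjusted p = 1.70e-06). Without that library the inputs were 952 ± 82.2 and 289 ± 29.8 FPKM (SD, n = 8) and the changes -3.68 and -3.91. PABP fRIP enriched 6, where 11.1% of all genes were enriched, with HBQ1 at 108 FPKM ± 17.9 (SD, n = 3) against 18.8 ± 6.41 in input (log2 fold change 2.53 ± 0.27 SE, limma adjusted p = 5.80e-12). HBG1 with HBG2, and HBA1 with its near-identical copy, share reads, so their split is uncertain, and HBA1 in PABP fRIP was at 111 FPKM ± 17.4 (SD, n = 3) against 28.7 ± 9.62 in input (log2 fold change 2.03 ± 0.62 SE, limma adjusted p = 0.00458), a call that did not hold in all 3 fits.

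Heme synthesis and iron genes had 22 of 336 pairs enriched (6.55%) and 33 depleted (9.82%), of which 10 and 28 held in all 3 fits. FTL, the ferritin light chain, was at 5935 FPKM ± 829 (SD, n = 3) against 1273 ± 293 in input (log2 fold change 2.25 ± 0.16 SE, limma adjusted p = 1.17e-18) in PABP fRIP, at 184 FPKM ± 15.9 (SD, n = 3) against 1273 ± 293 in input (log2 fold change -2.75 ± 0.16 SE, limma adjusted p = 8.30e-23) in SUZ12 fRIP and at 101 FPKM ± 19.6 (SD, n = 3) against 1273 ± 293 in input (log2 fold change -3.63 ± 0.16 SE, limma adjusted p = 5.93e-28) in HNRNPH1 fRIP, and FTH1, the heavy chain, at 959.9 FPKM ± 288 (SD, n = 3) against 191 ± 29.8 in input (log2 fold change 2.30 ± 0.19 SE, limma adjusted p = 1.15e-15) in PABP fRIP. Genes of the red cell membrane and the erythropoietin receptor had 28 of 312 pairs enriched (8.97%) and 26 depleted (8.33%), of which 19 and 12 held. With the input library that stood apart left out, 26 were enriched and 36 depleted, and of the heme and iron pairs 20 and 35. SPTB, a spectrin of the membrane skeleton, was at 109 FPKM ± 31.1 (SD, n = 2) against 20.8 ± 5.03 in input (log2 fold change 2.36 ± 0.33 SE, limma adjusted p = 2.23e-08) in EZH2 fRIP, and RHAG, of the Rh complex, at 32.7 FPKM ± 8.30 (SD, n = 3) against 207 ± 52.6 in input (log2 fold change -2.60 ± 0.24 SE, limma adjusted p = 2.04e-14) in HNRNPH1 fRIP. The glycophorin genes GYPB and GYPC, which encode membrane sialoglycoproteins, were at 56.9 FPKM ± 24.04 (SD, n = 3) against 12.2 ± 5.36 in input (log2 fold change 2.12 ± 0.36 SE, limma adjusted p = 1.74e-06) in DNMT1 fRIP and at 25.04 FPKM ± 2.37 (SD, n = 3) against 132 ± 16.9 in input (log2 fold change -2.34 ± 0.13 SE, limma adjusted p = 5.10e-24) in SUZ12 fRIP.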
